A study of Bos taurus with 50 samples.

Results

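The genes described here are HPGD (ENSBTAG00000025942), ACSL3 (ENSBTAG00000017258) and ACSL4 (ENSBTAG00000018986). They were taken by their Ensembl identifiers from a table of reads counted on 18830 bovine genes in 50 endometrial libraries, and all 3 passed the filter on low counts that left 16120 genes for testing. Endometrium, the lining of the uterus, was biopsied from Holstein x Jersey crossbred dairy cows in their first lactation at 5 and 9 weeks postpartum, and the study related the endometrial transcriptome to the uterine microbiota, which was not analysed here, and to whether the cow was cycling at week 5. The reads counted on genes were 21592867 to 32813237 per library (median 28126022.5).

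Groups were named for the status of the cow at week 5, also for week 9 libraries. CycW5 cows had a corpus luteum (CL) and circulating progesterone (P4) at week 5 and gave 10 libraries at each week. NoCycW5 cows had a large follicle, no CL and P4 below the detection limit at week 5, and gave 12 libraries at week 5 and 11 at week 9. CycNoP4 cows had high P4 in the week before but little at week 5, were left out of the published tests, and gave 4 and 3 libraries. All cows then received the same synchronization treatment before week 9 (GnRH, a P4 insert and PGF2α), so that the week 9 biopsies were taken on 1 set day of the estrous cycle. Status at week 5 is the ovarian state that a cow happened to have and was not assigned. Which libraries came from the same cow is not known here. The weeks were therefore treated as separate sets of libraries, and P-values measure the spread between libraries. A library is called by its label number.

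Prostaglandins are lipid signals made from arachidonate, a fatty acid held in membrane phospholipids. Phospholipases A2 free it, long-chain acyl-CoA synthetases such as ACSL3 and ACSL4 couple free fatty acids to coenzyme A so that they can be put back into lipids, and ACSL4 has a known preference for arachidonate. PTGS2 (cyclooxygenase 2) turns free arachidonate into the common precursor of the prostaglandins, PTGES makes prostaglandin E2 from it, and PTGFR is the receptor of prostaglandin F2α. HPGD, 15-hydroxyprostaglandin dehydrogenase, carries out the first step of prostaglandin inactivation. In the cow, prostaglandin F2α from the endometrium ends the life of the CL late in the cycle when there is no pregnancy.

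Some libraries stood apart from their groups for these genes. Library 57, from a CycW5 cow at week 5, had 12.1 CPM (reads of the gene relative to the TMM-scaled total of the library) of HPGD, where the other CycW5 libraries of that week all had more than the highest NoCycW5 library. Libraries 76 (NoCycW5) and 87 (CycW5) had 21.96 and 16.96 CPM of HPGD at week 9, within the range of the NoCycW5 cows at week 5. Library 72 (CycW5, week 9) had the most ACSL4 and the most ACSL3 of all 50 libraries. No group label was changed, and values without these libraries are given where they matter.

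HPGD mRNA was scarce in the endometrium of NoCycW5 cows at week 5 and abundant in CycW5 cows. The 12 NoCycW5 libraries ran from 13.4 CPM in library 69 to 63.7 CPM in library 61 with a median of 27.1. The 10 CycW5 libraries ran from 12.1 CPM in library 57 to 611 CPM in library 13 with a median of 372. Library 57 alone caused the overlap, since 9 of the 10 CycW5 libraries were above every NoCycW5 library. The means were 353 ± 201 and 29.7 ± 14.9 CPM (SD, n = 10 and n = 12). HPGD mRNA abundance was 11.9-fold greater in CycW5 cows (log2 fold change 3.57 ± 0.51, the standard error of the fit). The edgeR quasi-likelihood test gave a Benjamini-Hochberg adjusted P over all genes (BH P) of 1.10e-06, and without library 57 the log2 fold change was 3.73. In a bulk biopsy, fewer cells of a type and less RNA per cell cannot be told apart.

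ACSL3 mRNA was also more abundant in CycW5 cows at week 5. The NoCycW5 libraries lay close together, from 37.4 to 81.5 CPM with a median of 58.2. The CycW5 libraries ran from 54.0 CPM in library 57 to 233 CPM in library 12 with a median of 136. Library 57 was again the 1 CycW5 library inside the NoCycW5 range. The difference was 2.47-fold (log2 1.30, standard error 0.22, BH P = 1.96e-05, edgeR).

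ACSL4 mRNA was more abundant as well, with a wide spread among CycW5 cows. The NoCycW5 libraries ran from 40.1 to 127 CPM with a median of 68.4. The CycW5 libraries ran from 79.9 CPM in library 66 to 555 CPM in library 12 with a median of 147. Libraries 67 and 45 followed library 12 at 520 and 441 CPM, and 6 of 10 CycW5 libraries were above every NoCycW5 library. The fold change was 3.30 (log2 1.72, standard error 0.38, BH P = 7.03e-04, edgeR), and it was smallest without library 12 (log2 1.51).

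All 3 genes were thus called greater in CycW5 cows at week 5, in a comparison in which 25.6% of the 16120 genes were called and 14.5% were greater in CycW5 cows. Their median log2 fold change was 1.72, beside a median of -0.02 over all genes. None of the 3 separated the groups fully, as 0.242% of all genes did with the greater values in CycW5 cows. They kept their call in every one of the 22 fits that left out 1 library of these groups. The study had already reported these 3 genes as greater in CycW5 cows at week 5, on some of these libraries. Their calls and direction in this comparison are therefore not independent evidence.

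**Figure D1:**
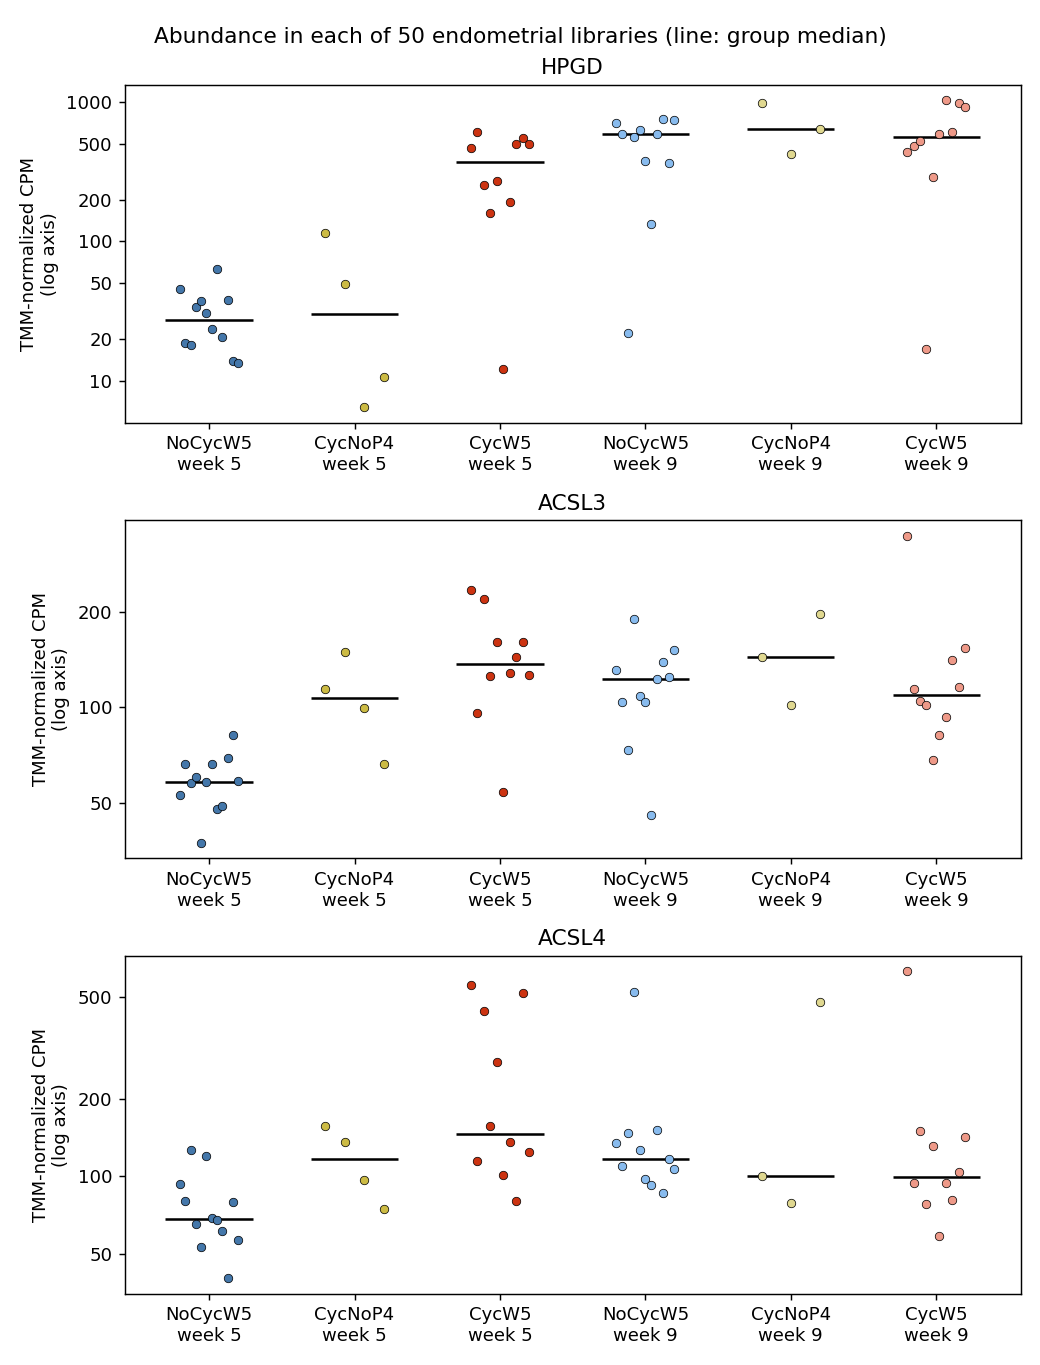
Abundance of HPGD, ACSL3 and ACSL4 in each of the 50 libraries, as TMM-normalized CPM on log axes, by status at week 5 and week of biopsy. Each point is 1 library and the line is the group median. HPGD had medians of 27.1 and 30.1 CPM in NoCycW5 and CycNoP4 cows at week 5 and of 372 to 646 CPM in the other groups, while a few ACSL4 libraries of several groups lay far above their group median.

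At week 9 no difference between CycW5 and NoCycW5 cows was detected for any of the 3 genes. HPGD ran from 16.96 to 1033 CPM in CycW5 cows (median 560.0) and from 21.96 to 758 CPM in NoCycW5 cows (median 589). In CycW5 cows 3 of 10 libraries were above every NoCycW5 library and library 87 was below every one of them, and the log2 fold change of HPGD was 0.24 (95% interval -0.73 to 1.21, BH P = 0.958, edgeR). ACSL3 had a log2 fold change of 0.17 (95% interval -0.28 to 0.62). ACSL4 had one of 0.02 (95% interval -0.75 to 0.79), which leaves room for differences of either sign. Without library 72 the log2 fold changes of ACSL3 and ACSL4 were -0.12 and -0.57. Of the 21 fits that left out 1 library, 1 changed the sign of ACSL3 and 7 that of ACSL4, and ACSL4 was -0.14 with limma-voom and -0.22 with quality weights. In this comparison edgeR called 0% of all genes, with 934 genes at an unadjusted P under 0.05, and DESeq2 called 15.

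Between week 5 and week 9, HPGD rose in NoCycW5 cows from a median of 27.1 to one of 589 CPM. In 10 of 11 week 9 libraries it was above every week 5 library, the exception being library 76. Library 91, at 134 CPM, was the lowest of the others. The change was 16.8-fold (log2 4.07, standard error 0.52, BH P = 2.79e-07, edgeR), and the log2 fold change was 4.21 without library 76.

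ACSL3 rose in the same cows by a log2 fold change of 1.003 ± 0.22 (standard error, with BH P = 3.33e-04, edgeR). Its week 9 libraries ran from 45.6 CPM in library 91 to 189 CPM in library 80 with a median of 123, and 9 of 11 were above every week 5 library. ACSL4 rose 2.03-fold (log2 1.02, standard error 0.37, BH P = 0.0280, edgeR). Its week 9 libraries ran from 86.0 to 522 CPM with a median of 117, and 4 of 11 were above every week 5 library. The ACSL4 call rested on library 80, which held 522 CPM, and without it the log2 fold change was 0.63 (BH P = 0.158, edgeR). In this comparison 34.4% of all genes were called and 18.4% were greater at week 9, and the median log2 fold change of the 3 genes was 1.02 beside -0.02 over all genes. It shares the NoCycW5 libraries of week 5 with the comparison of CycW5 and NoCycW5 cows at that week, so these fold changes are not independent of those.

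In CycW5 cows, edgeR called none of the 3 genes between the weeks, in a comparison in which it called 0.124% of all genes. HPGD had a log2 fold change of 0.74 (95% interval -0.26 to 1.75, BH P = 0.532, edgeR). ACSL3 had one of -0.13 (95% interval -0.59 to 0.33). ACSL4 had one of -0.68 (95% interval -1.47 to 0.11, BH P = 0.453, edgeR). Its median was 147 CPM at week 5 and 99.2 CPM at week 9, although library 72 held the highest value of all. Without library 72 the log2 fold change of ACSL4 was -1.27 (BH P = 0.0417, edgeR). With limma-voom and quality weights, which called 3013 genes, ACSL4 was called lower at week 9 (-1.13, BH P = 0.0141, limma).

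The change from week 5 to week 9 itself differed between the groups for all 3 genes, in a test in which 7.66% of all genes were called and 4.93% had the more positive change in NoCycW5 cows. In this fit the contrast equals the difference of CycW5 from NoCycW5 cows at week 5 minus that at week 9. It is therefore not a result separate from the week 5 difference. The change of HPGD was greater in NoCycW5 cows by 3.33 on the log2 scale (standard error 0.69, BH P = 0.00228, edgeR). That of ACSL3 was greater by 1.13 (standard error 0.31, BH P = 0.0207, edgeR). For ACSL4 the difference was 1.70 (standard error 0.54, BH P = 0.0425, edgeR), and it was called in 20 of 43 fits that left out 1 library. Without library 80 it was 1.31 (BH P = 0.101, edgeR) and without library 72 it was 2.29 (BH P = 0.00144, edgeR).

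CycNoP4 cows at week 5 were compared with CycW5 and NoCycW5 cows for each of the 3 genes, without a test between the genes. HPGD was 115 CPM in library 51, 49.6 in library 56, 6.45 in library 58 and 10.6 in library 64. Libraries 58 and 64 were below every NoCycW5 library and library 51 was above every one of them, and the mean was 45.5 ± 50.4 CPM (SD, n = 4). Its abundance was 7.76-fold lower than in CycW5 cows (log2 -2.96 ± 0.78, standard error, with BH P = 0.00808, edgeR), and the log2 fold change was -3.99 without library 51 and -2.59 without library 58. Against NoCycW5 cows its log2 fold change was 0.61 (95% interval -0.64 to 1.87, BH P = 0.504, edgeR), and it was -0.42 without library 51.

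ACSL3 in the CycNoP4 cows was 114 CPM in library 51, 149 in library 56, 99.3 in library 58 and 66.2 in library 64. The libraries lay at or above the upper part of the NoCycW5 range, with 3 of 4 above every NoCycW5 library. ACSL3 was 1.83-fold greater than in NoCycW5 cows (log2 0.87, standard error 0.28, BH P = 0.0301, edgeR), and 13 of 16 fits that left out 1 library called it, with a BH P of 0.188 without library 56 and of 0.140 without library 51. Against CycW5 cows it had a log2 fold change of -0.43 (95% interval -1.06 to 0.19, BH P = 0.338, edgeR). ACSL4 was 158, 136, 97.2 and 74.5 CPM in the same order of libraries. It was called in neither comparison, with log2 fold changes of 0.62 against NoCycW5 cows (95% interval -0.37 to 1.60) and of -1.11 against CycW5 cows (95% interval -2.22 to 0.0044, BH P = 0.153, edgeR). Of all genes, 16.4% were called between CycNoP4 and NoCycW5 cows, 9.92% as greater, and 17.9% between CycNoP4 and CycW5 cows, 8.29% as lower. Both comparisons use the same 4 CycNoP4 libraries.

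At week 9 the 3 CycNoP4 libraries held much HPGD, with 992 CPM in library 79, 423 in library 88 and 646 in library 94. All 3 were above all 4 of week 5, which was so with greater week 9 values for 14% of all genes in groups this small. HPGD rose 15.1-fold in these cows (log2 3.92, standard error 0.91, BH P = 0.00478, edgeR), and 19.6% of all genes were called, 9.74% as greater at week 9. The log2 fold change was 3.53 without library 79, 4.95 without library 51 and 4.69 with limma-voom. ACSL3 was 144, 101 and 196 CPM in libraries 79, 88 and 94, and its log2 fold change against week 5 was 0.45 (95% interval -0.33 to 1.24). ACSL4 was 101, 78.7 and 477 CPM, with a log2 fold change of 0.91 (95% interval -0.43 to 2.25) that was -0.41 without library 94. Against NoCycW5 and CycW5 cows at week 9, edgeR called none of the 3 genes and no other gene. The log2 fold changes of HPGD were 0.46 (95% interval -0.95 to 1.87) and 0.22 (95% interval -1.23 to 1.66). At an unadjusted P under 0.05 there were 782 and 1257 genes in these comparisons, and DESeq2 called 13 and 19.

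**Figure D2:**
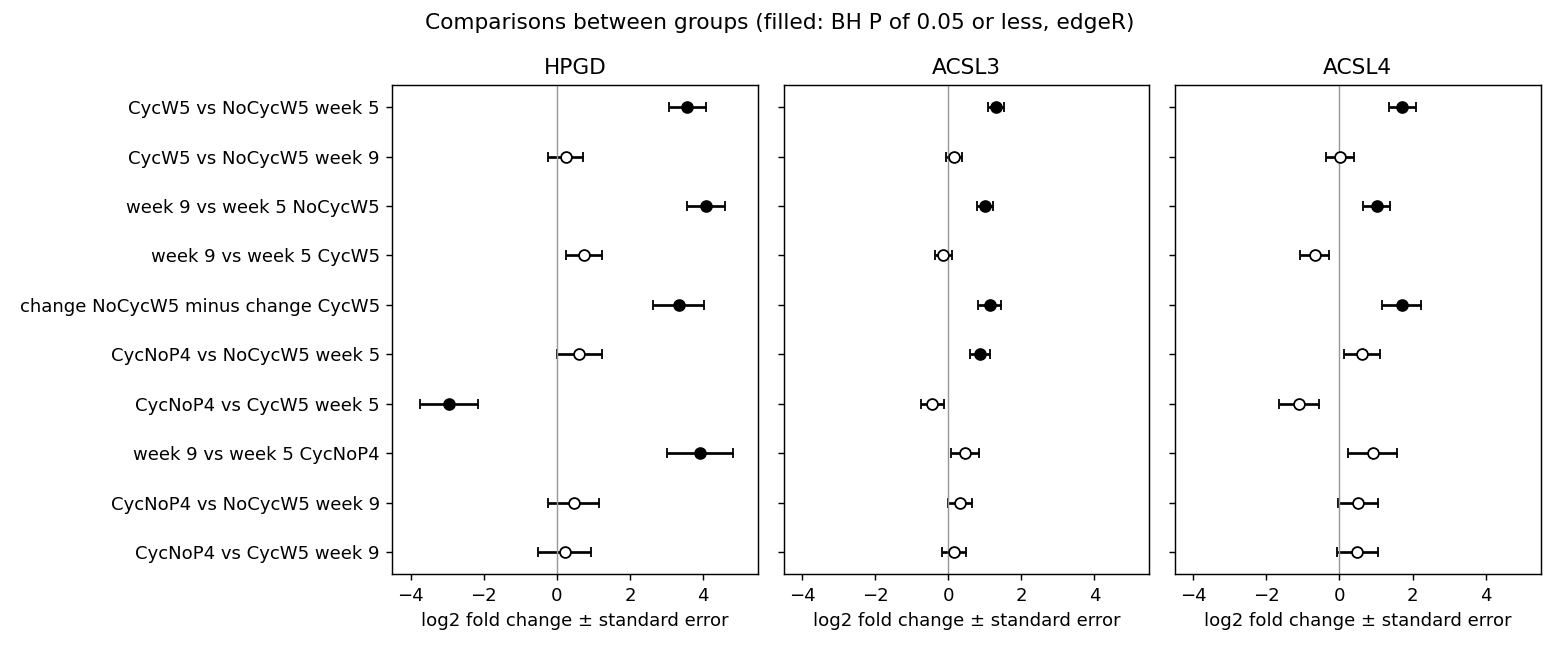
Log2 fold change (x axis) of HPGD, ACSL3 and ACSL4 in the 10 comparisons (y axis), with bars of 1 standard error from the edgeR fit and filled points for a BH P of 0.05 or less. HPGD was called in 5 comparisons, all of which use NoCycW5 or CycNoP4 libraries of week 5, and none of the 3 genes was called in the comparisons within week 9.

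By median CPM, HPGD was lowest in NoCycW5 cows at week 5, followed by CycNoP4 cows at week 5, CycW5 cows at week 5, CycW5 cows at week 9, NoCycW5 cows at week 9 and CycNoP4 cows at week 9. The only neighbours in this order that differed beyond their spread were CycNoP4 and CycW5 cows at week 5. For ACSL3 the order by median was NoCycW5 (58.2) and CycNoP4 (107) at week 5, CycW5 (109) and NoCycW5 (123) at week 9, CycW5 at week 5 (136) and CycNoP4 at week 9 (144), where the first neighbours differed and CycW5 and NoCycW5 at week 9 did not. The ACSL4 order was NoCycW5 at week 5 (68.4), CycW5 (99.2) and CycNoP4 (101) at week 9, CycNoP4 at week 5 (117), NoCycW5 at week 9 (117) and CycW5 at week 5 (147). Within it, CycW5 and CycNoP4 cows at week 9 did not differ beyond their spread, nor did CycNoP4 cows at week 9 and at week 5 (BH P = 0.334, edgeR). The remaining neighbours in the ACSL3 and ACSL4 orders differ in both status and week and were not compared. Levels are not compared between genes, because CPM values are not scaled for gene length.

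The rest of the pathway was represented by 9 of 44 listed genes, those whose identifiers could be paired with a symbol. The pairs came from tables of genes that the study had called on some of these libraries, so the direction of these genes is not independent evidence. Of the 9, edgeR called 6 greater and 2 lower in CycW5 than in NoCycW5 cows at week 5, and the same numbers greater and lower at week 9 than at week 5 in NoCycW5 cows. Over all tested genes, 25.6% were called in the first of these comparisons, 14.5% as greater and 11.1% as lower, and 34.4% in the second, 18.4% as greater and 16.1% as lower. The median log2 fold change of the 9 genes was 0.88 and 1.56, beside -0.02 over all genes in both. PTGR1, SLCO2A1 and AKR1B1, which act in breakdown, uptake and synthesis of prostaglandins, were not analysed here.

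Upstream of the acyl-CoA synthetases, 3 of 6 listed phospholipases A2 had an identifier. At week 5 edgeR called all 3 greater in CycW5 cows, and only PLA2G3 kept its call under both limma-voom settings, without and with weights for library quality. PLA2G3, a secreted phospholipase, ran from 0.11 to 1.76 CPM in NoCycW5 libraries (median 0.48) and from 0.51 to 19.8 CPM in CycW5 libraries (median 5.91). Library 12, which had the most ACSL4 in this group, also had the most PLA2G3, and the log2 fold change was 3.62 (BH P = 1.94e-04, edgeR). PLA2G10, another secreted phospholipase, had a log2 fold change of 1.80 (BH P = 0.0111, edgeR), although its medians were 21.1 and 40.96 CPM. PLA2G4A, the cytosolic phospholipase that releases arachidonate, had one of 0.88 (BH P = 0.00870, edgeR). With limma-voom PLA2G10 and PLA2G4A had BH P of 0.0955 and 0.0501 in this comparison and were not called, nor were they with quality weights (log2 1.09 and 0.46, BH P of 0.0830 and 0.0897, limma). LPCAT3, which returns arachidonoyl-CoA to phospholipids, was greater by 0.75 (standard error 0.12, BH P = 4.78e-06, edgeR), and library 57 had its lowest CycW5 value.

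Of the genes that act on free arachidonate, PTGS2 ran from 8.26 to 47.3 CPM in NoCycW5 libraries at week 5 (median 22.8) and from 17.5 CPM in library 57 to 514 CPM in library 13 in CycW5 libraries (median 72.8). Its log2 fold change was 2.64 (standard error 0.64, BH P = 0.00200, edgeR), and it was 1.92 with limma-voom (BH P = 0.0356, limma) and 1.57 with quality weights (BH P = 0.0224, limma). PTGES moved the other way, from a median of 9.98 CPM in NoCycW5 to 2.86 CPM in CycW5 libraries (log2 fold change -1.82, BH P = 0.00143, edgeR). The highest PTGES value among the CycW5 libraries, 8.72 CPM, was that of library 57, the library with the least HPGD. ALOX12, a lipoxygenase that uses the same substrate, had a log2 fold change of 1.005 (BH P = 0.0172, edgeR).

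The prostaglandin F2α receptor PTGFR was lower in CycW5 cows, with medians of 4.89 and 0.65 CPM and a log2 fold change of -2.71 ± 0.91 (standard error, with BH P = 0.0249, edgeR). The groups overlapped widely, since NoCycW5 libraries ran from 1.41 to 60.8 CPM and CycW5 libraries from 0.20 to 9.75 CPM. PTGDR, a prostaglandin D2 receptor, had a log2 fold change of -0.63 (BH P = 0.184, edgeR), and it was called lower with quality weights (-0.73, BH P = 0.00999, limma).

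From week 5 to week 9 in NoCycW5 cows, PTGS2 rose by a log2 fold change of 3.36 (BH P = 9.65e-05, edgeR), to a median of 249 CPM. PLA2G10 rose by 2.75, ALOX12 by 1.91, PLA2G3 by 1.85, PLA2G4A by 1.56 and LPCAT3 by 0.41 on the log2 scale. The BH P of these 5 genes was at most 0.0296 with edgeR, whereas limma-voom gave 0.155 for PLA2G3 (log2 1.42). All 11 week 9 libraries had more PLA2G3 than the week 5 median. The size of its rise leans on library 80, at 13.1 CPM beside a week 9 group median of 1.09 CPM. PTGES fell by 1.71 (BH P = 0.00123, edgeR), and PTGFR fell by 4.90 (BH P = 1.67e-04, edgeR) to a median of 0.07 CPM with some libraries at 0. The PTGFR value was -5.84 with limma-voom. PTGDR had a log2 fold change of -0.78 (BH P = 0.0736, edgeR), and it was called lower with limma-voom (-0.86, BH P = 0.0367, limma) and with quality weights (-1.12, BH P = 6.12e-05, limma).

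**Figure D3:**
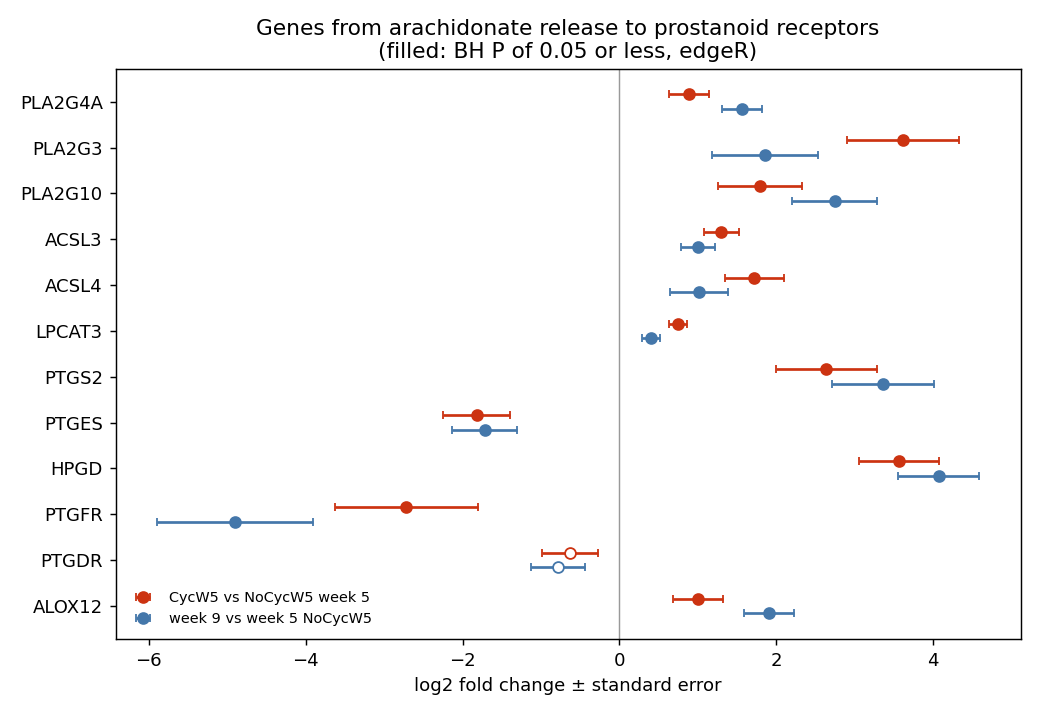
Log2 fold change (x axis, with bars of 1 standard error) of HPGD, ACSL3, ACSL4 and the 9 other genes of the pathway (y axis, ordered from release of arachidonate to receptors and the lipoxygenase) for CycW5 against NoCycW5 cows at week 5 (red) and week 9 against week 5 in NoCycW5 cows (blue). Filled points have a BH P of 0.05 or less, and both comparisons share the NoCycW5 libraries of week 5. PTGES and PTGFR were lower in both, PTGDR was called in neither by edgeR, and the other genes were greater in both.

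In CycW5 cows between the weeks and in CycW5 against NoCycW5 cows at week 9, edgeR called none of the 9 genes, where it called 0.124% and 0% of all genes, so that nothing is read from these counts. In CycNoP4 against NoCycW5 cows at week 5, 4 were greater, PTGS2 (log2 2.66), PLA2G10 (2.14), ALOX12 (1.62) and LPCAT3 (0.63), while HPGD was not called. Of all genes 16.4% were called in this comparison and 9.92% were greater, and without library 51, which held 510 CPM of PTGS2, 153 genes were called in all. Against CycW5 cows, PTGES (log2 1.69) and PTGDR (1.64) were greater in CycNoP4 cows, where HPGD was lower and 9.62% of all genes were greater. PTGDR was 72.5 CPM in library 51, 27.4 in library 56, 8.94 in library 58 and 9.94 in library 64. The last pair lay within the CycW5 range of 5.46 to 17.8 CPM, so the PTGDR value leans on libraries 51 and 56. Library 51 held the highest PTGS2 of the CycNoP4 cows and also their highest HPGD (115 CPM), and library 58 held the lowest of both. From week 5 to week 9 in these cows, PTGES and PTGDR fell by 2.60 and 2.44 on the log2 scale, where 9.85% of all genes were lower at week 9. All 3 week 9 libraries were below all 4 of week 5 for PTGDR and also for PTGES. In groups this small, 26.2% of all genes showed no overlap between the weeks, in either direction. The size of the PTGDR fall leans on library 51, at 72.5 CPM beside a week 5 group median of 18.6 CPM.

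Receptors through which steroids and oxytocin act on this tissue were listed too, and 3 of 4 had an identifier. These identifiers also came from genes that the study had called, so the direction of these receptors is not independent evidence. The estrogen receptor ESR2 was greater in CycW5 cows at week 5 (log2 fold change 2.72, BH P = 1.05e-06, edgeR), and it was greater at week 9 than at week 5 in NoCycW5 cows (log2 2.42, BH P = 4.70e-06, edgeR). ESR1 had log2 fold changes of -0.29 (BH P = 0.353, edgeR) and -0.67 (BH P = 0.0174, edgeR) in these comparisons. The oxytocin receptor OXTR had log2 fold changes of -1.44 (BH P = 0.102, edgeR) and -1.69 (BH P = 0.0391, edgeR). The week 5 value of OXTR passed the threshold under limma-voom (-1.84, BH P = 0.00607, limma) and under quality weights (-2.05, BH P = 4.74e-05, limma), and the values between the weeks were then -2.92 and -3.79. In CycNoP4 cows at week 5 the 4 libraries of OXTR were between 120.0 and 277 CPM, and at week 9 the 3 were between 1.59 and 10.01 CPM.

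The libraries named above for their little HPGD also stood out for other genes. Library 57 had the highest OXTR (151 CPM) of the CycW5 cows at week 5, and library 87 had the highest OXTR (178 CPM) and the highest PTGFR (6.83 CPM) of those at week 9. In NoCycW5 cows at week 9, library 91 had the highest OXTR (162 CPM) and the highest PTGFR (3.50 CPM) with the lowest ACSL3, and library 76 had the highest PTGES (10.9 CPM). Over all 50 libraries, which share depth and the difference between groups, the correlation of log2 CPM of HPGD was -0.82 with PTGES, -0.79 with OXTR, -0.78 with PTGFR and 0.74 with both PTGS2 and PLA2G4A. After the group means were taken out, these values were -0.64, -0.57, -0.54, 0.64 and 0.62.

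The 3 genes were also compared with each other across libraries, as a description. Over the 50 libraries Pearson's r was 0.74 between ACSL3 and ACSL4, 0.65 between HPGD and ACSL3 and 0.40 between HPGD and ACSL4. Without group means the values were 0.64, 0.42 and 0.17. Among the pathway genes ACSL4 was most like the phospholipase PLA2G3, with r of 0.86 over the 50 libraries, 0.81 without group means and a Spearman's rho of 0.72. Its r with PLA2G10 was -0.02 and with PTGS2 0.15. The libraries with the most ACSL4 in 4 groups, library 12 (CycW5, week 5), library 72 (CycW5, week 9), library 80 (NoCycW5, week 9) and library 94 (CycNoP4, week 9), also had the most PLA2G3 of their groups, at 19.8, 25.6, 13.1 and 8.28 CPM. Each of the 4 also had the most ACSL3 of its group. The other groups did not share this, since in NoCycW5 cows at week 5 the top library was 47 for ACSL4, 48 for PLA2G3 and 68 for ACSL3, and in CycNoP4 cows at week 5 it was 51 for ACSL4 and 56 for both PLA2G3 and ACSL3. Libraries 72 and 94 had the least PLA2G10 and the least PTGS2 of their groups. The endothelial markers VWF and CDH5 went the other way. The r of ACSL4 was -0.72 with VWF and -0.57 with CDH5 (-0.62 and -0.51 without group means), that of ACSL3 was -0.71 and -0.52, and that of HPGD was -0.42 and -0.086. Libraries 72, 80 and 94 had the least VWF of their groups (143, 69.6 and 161 CPM) and also the least CDH5, whereas in CycW5 cows at week 5 the least of both was in library 45 and not in library 12. The part of these cells in the ACSL4 values was not tested.

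**Figure D4:**
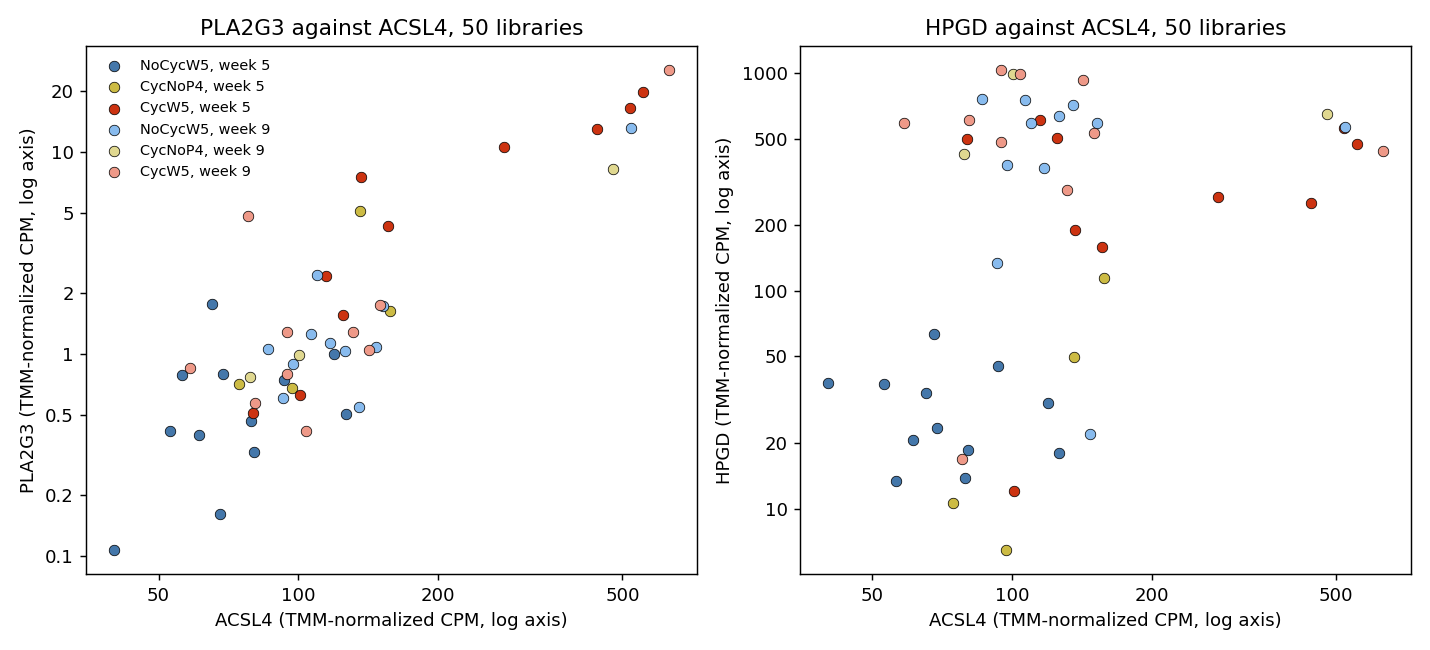
PLA2G3 (left) and HPGD (right) against ACSL4 in the 50 libraries, all as TMM-normalized CPM on log axes, with 1 point per library coloured by status at week 5 and week. PLA2G3 increased along with ACSL4 up to library 72 (630 CPM of ACSL4 and 25.6 CPM of PLA2G3), whereas libraries with about 100 CPM of ACSL4 spanned nearly the whole range of HPGD, and r was 0.86 and 0.40.

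Among the 2249 other tested genes with a symbol, those most like HPGD across the 50 libraries by Pearson's r were ATP1B2, a subunit of the sodium-potassium pump (0.94), CHDH, choline dehydrogenase (0.93), SH3RF2 (0.93), SCARA5, a ferritin receptor (0.93), and SLC23A1, a vitamin C transporter (0.93). Without group means CHDH was first at 0.86, and by Spearman's rho ATP1B2 ranked at 10 and SLC23A1 at 171.5. Those most like ACSL3 were MPP7 (0.92), ALDH18A1, an enzyme of proline synthesis (0.91), SUCO (0.90), CYB5B (0.90) and PDZD8 (0.90), and MPP7 remained first without group means and by Spearman's rho. Those most like ACSL4 were GK5, a glycerol kinase (0.86), PLA2G3 (0.86), USP31 (0.85), MCCC2 (0.85) and TOR1B (0.84). GK5 was first without group means, but by Spearman's rho it ranked at 64. These genes had all been called in the study, which narrows the genes that could be named.

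Some markers of cell types moved in the same comparisons. Markers with an identifier had been called by the study on some of these libraries, so their movement is not independent evidence. The other listed markers were not analysed here. Of 6 epithelial markers 2 had an identifier, EPCAM, which drew the more reads without regard to length, and KRT8, and both were above 0 in every library. Their summed level ran from 216 to 414 CPM in NoCycW5 libraries at week 5 (median 307) and from 295 to 855 CPM in CycW5 libraries (median 474). In CycNoP4 cows at week 5 it ran from 434 to 742 CPM with a median of 553, above that of CycW5 cows, while their median HPGD was 30.1 CPM against 372 CPM. The medians at week 9 were 637 CPM in NoCycW5, 518 in CycNoP4 and 653 in CycW5 cows. EPCAM and KRT8 were greater in CycW5 than in NoCycW5 cows at week 5 (log2 0.71 and 0.78) and greater at week 9 than at week 5 in NoCycW5 cows (log2 1.09 and 0.63) with edgeR. At week 5 EPCAM was not called with limma-voom (log2 0.60, BH P = 0.0589, limma) or with quality weights (log2 0.46, BH P = 0.0595, limma), whereas KRT8 was called with both. Of 3 endothelial markers 2 had an identifier, with VWF lower in both comparisons (log2 -0.81 and -0.63) and CDH5 lower in the first alone (log2 -0.44). The sum of VWF and CDH5 had medians of 387 CPM in NoCycW5 and 254 CPM in CycW5 cows at week 5. PDGFRA, the 1 stromal marker of 6 with an identifier, was called in neither comparison with edgeR. Between the weeks in NoCycW5 cows it was called greater with quality weights (log2 0.32, BH P = 0.0456, limma). No marker of smooth muscle, leukocytes or blood was analysed here.

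Relative to the sum of EPCAM and KRT8, HPGD still stood 2.57 higher in CycW5 than in NoCycW5 cows at week 5, as a difference of mean log2 ratios, beside 3.24 as a difference of mean log2 CPM. For the change from week 5 to week 9 in NoCycW5 cows, the values were 2.88 and 3.82. For ACSL3 the week 5 difference was 0.56 relative to the epithelial markers and 1.23 in log2 CPM, and for ACSL4 it was 0.78 and 1.45. Between the weeks in NoCycW5 cows, ACSL3 and ACSL4 moved by 0.01 and -0.06 relative to the epithelial markers, beside 0.95 and 0.87 in log2 CPM. EPCAM makes up most of that sum, and KRT8 alone rose by a log2 fold change of 0.63, less than the 1.003 of ACSL3 and the 1.02 of ACSL4, without a test of these differences. In CycNoP4 against NoCycW5 cows at week 5, HPGD was -0.97 and ACSL3 -0.05 on this ratio scale. The part of cell makeup in these differences was not tested.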

How the data were processed

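Endometrial RNA was sequenced from stranded mRNA libraries as single-end reads. According to the study's methods, reads were trimmed by the authors and mapped with Hisat2 to bovine build UMD3.1, and FeatureCounts assigned them to Ensembl genes. The submitters' processing notes also name StringTie and edgeR. The deposited table holds whole-number counts without normalization for 18830 genes in 50 libraries. Totals were 21592867 to 32813237 reads per library, and the lowest HPGD value of all libraries rested on 171 reads.

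Counts were analysed in R 4.3.3 with edgeR 4.0.16 (TMM normalization, filterByExpr, robust quasi-likelihood fit of 6 group means over the 50 libraries), and 10 contrasts were tested. A gene was called when its P, adjusted over the 16120 genes tested by the Benjamini-Hochberg method (BH), was at most 0.05. Fold changes come from this fit, and correlations use log2 CPM with a prior count of 2. Ratios, and the differences of mean log2 CPM beside them, use CPM without a prior count. The alternatives were DESeq2 1.42.0 (its size factors in edgeR, and its Wald test), limma 3.58.1 (voom, plain or with quality weights per library), every gene kept, only genes with 1 CPM or more in 10 or more libraries, a fit of only the compared groups, and leaving out each library in turn.

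The 3 genes, the gene lists and the tests were chosen with earlier results of these data known. Named genes were the 3 genes in every comparison, listed genes called in CycW5 against NoCycW5 cows at week 5 or between the weeks in NoCycW5 cows, PTGS2, PTGES, PTGFR, PTGR1, SLCO2A1 and AKR1B1, and the 5 genes most like each of the 3 by Pearson's r. Libraries named singly and the receptors and markers beside them were described after their values were seen. Symbols were paired with identifiers through the study's supplementary tables, which gave 2321 pairs. Simulated counts for CycW5 against NoCycW5 cows at week 5, over 16000 genes, were used to check edgeR, which recovered 88% of genes changed 2-fold and 98% of those changed 4-fold. No library repeated another, since the mean chi-square per gene was at least 28.2 over 1225 pairs, where sampling noise alone gives 1. The cow, the microbiota and batches were not fitted. Gene and promoter sequences and coordinates were not analysed here.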

Additional observations from a re-analysis of the deposited data

Results flagged for a closer look

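Library 72, from a CycW5 cow at week 9, lay far above the other 9 libraries of its group for the acyl-CoA synthetases. It held 347 CPM of ACSL3, where the next library held 154 CPM, and 630 CPM of ACSL4, where the next held 150.5 CPM. The gap to the next library was 0.692 and 0.839 of the whole range of the group. Of 9 sets of values in groups of 4 to 10 libraries, 2 had a gap beyond Dixon's 95% limit. Chance passes that limit in about 1 of 20 sets if the values are normally distributed, and CPM was used here without a log. Both gaps come from the same library in 2 genes that varied together, so they are not independent. Larger groups, such as that of library 80, were not tested in this way.

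Between NoCycW5 and CycW5 cows, the changes over the weeks were unequal by 3.33 for HPGD, 1.13 for ACSL3 and 1.70 for ACSL4 on the log2 scale, each with a BH P of 0.05 or less for the difference itself (edgeR). For ACSL4 this call held in 20 of 43 fits that left out 1 library, and not with limma-voom (BH P = 0.0537, limma).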

How the results depend on the processing

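HPGD, ACSL3 and ACSL4 kept their direction and call in CycW5 against NoCycW5 cows at week 5 under all 7 alternatives, and between the weeks in NoCycW5 cows too. Other results depended more on the tool or on single libraries, and the cause was not tested. Values of these genes here are log2 fold changes.

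Between the weeks in CycW5 cows, the number of called genes (20) was 8 without a filter, 251 with DESeq2, 0 with limma-voom, 3013 with library quality weights, 0 in a fit of only these groups, and 0 to 406 when single libraries were left out, highest without library 72. The log2 fold change of ACSL4 was -1.13 with quality weights (BH P = 0.0141, limma) and -1.27 to -0.47 without single libraries. In CycW5 against NoCycW5 cows at week 9, DESeq2 called 15 genes and quality weights 1, and 0 to 5 were called without single libraries. There, ACSL4 was -0.14 with limma-voom, -0.22 with quality weights and -0.57 to 0.42 without single libraries, and ACSL3 was -0.040 with quality weights and -0.12 to 0.26 without single libraries. For the difference of the changes (1234 genes), the number was 1879 with DESeq2, 578 with limma-voom, 3115 with quality weights and 777 (without library 87) to 2171 (without library 76), and ACSL4 was 1.59 with limma-voom (BH P = 0.0537, limma) and 1.31 to 2.29 without single libraries. Between the weeks in NoCycW5 cows, quality weights called 8765 genes, and ACSL4 was 0.63 to 1.11 without single libraries.

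For the 4 and 3 CycNoP4 libraries, against NoCycW5 cows at week 5 (2650 genes) 904 were called in a fit of only these groups and 153 (without library 51) to 4775 (without library 64), HPGD was -0.081 with limma-voom, -0.27 with quality weights and -0.42 to 0.98 without single libraries, and ACSL3 was 0.67 to 1.04. Against CycW5 cows at week 5 (2887 genes), 1771 were called in a fit of only these groups and 1111 (without library 51) to 4342 (without library 64). Between the weeks (3158 genes), 4952 were called with quality weights, 1231 in a fit of only these groups and 1295 to 4525 without single libraries, lowest without library 79 and highest without library 64, and ACSL4 was -0.41 to 1.29. At week 9, DESeq2 called 13 genes against NoCycW5 and 19 against CycW5 cows, and 0 to 18 and 0 to 1 were called without single libraries. ACSL4 was -0.78 to 0.91 and -0.81 to 1.07, ACSL3 against CycW5 cows was -0.11 to 0.44, and HPGD against CycW5 cows was -0.044 with quality weights and -0.14 to 0.47.

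No paired analysis was possible because the labels do not link libraries to cows, and replicate numbers were given in accession order. With 3 or 4 CycNoP4 libraries the intervals are wide.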
